A study of Schizophyllum commune with 6 samples.

Results

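The comparison described here set 2 RNA-seq libraries of a dhc2 knockout of the mushroom-forming fungus Schizophyllum commune against 2 libraries of the wild type strain E6, 4 of the 6 libraries of the series, over all 14652 gene models. The libraries were chosen by their titles. The knockout carries a deletion of dhc2 (genotype label delta_dhc2) and has the mating type A3,5;B2,2, whereas E6 is wild type with A4,6;B2,1. All are labelled monokaryons, although the growth protocol speaks of a mating interaction, and which of these applies was not settled. Mycelium was grown on complete medium (CYM) at 28 °C, moved onto cellophane and harvested after 3 days. The remaining 2 libraries, of the wild type strain 12-43 with the knockout's mating type A3,5;B2,2, entered the fit for its estimate of spread, and their levels are given beside some genes. Because the knockout and E6 differ in dhc2, in strain and in both mating-type loci, the effect of the deletion and that of the strain cannot be told apart in this comparison. The labels do not say that replicates were separate cultures, so the p-values cover only how far these libraries spread, and that spread may be technical.

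Dynein heavy chains are the motor subunits of dynein, which moves cargo and nuclei along microtubules, and in S. commune the heavy chain is split into separate genes, of which dhc2 is one. In the mating of basidiomycetes, nuclei migrate through the mycelium of a compatible partner. The B mating-type locus encodes small lipopeptide pheromones and the receptors that recognise the pheromones of other specificities, and the A locus encodes homeodomain transcription factors. Monokaryotic mycelium of this species makes aerial hyphae coated with the hydrophobin SC3, a small secreted protein that assembles into a water-repellent film, and a compatible dikaryon adds other hydrophobins and forms fruiting bodies.

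Values are RPKM, which divides the reads of a model by its length and by the depth of its library. Whole reads recovered from the RPKM rested on 14372979 and 13857189 mapped reads in the knockout and 9210239 and 13012283 in E6. These were 55.6% and 58.7% of the raw reads in the knockout and 46.0% and 53.0% in E6. Duplicates made up 59.0% and 61.7% of reads in the knockout and 65.6% and 65.2% in E6. A value of 0 allows up to 3 reads, or 0.209 to 0.326 RPKM for a model of 1 kb in these 4 libraries, and intervals and floors cover counting error only. Across models the log2 difference between replicates had an SD of 0.217 in the knockout and 0.297 in E6. The RefSeq gene table paired 3634 models with a gene and 39 with a symbol. The model of dhc2 was not among those with a symbol, so the deletion was not checked on its own reads. The 4 libraries also differed in their quality reports: a short GAAGA sequence was listed as enriched in both knockout libraries (3.03 and 3.07 times its expected frequency) and in neither E6 library, and GC content was 59% in both knockout libraries against 56% and 58% in E6. This library difference and the groups cannot be told apart within the 4 libraries, but the 12-43 libraries fall on both sides of it. A fit with the GAAGA listing as a term, which leans on the 12-43 pair, is quoted below where it ends a call.

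The knockout and E6 transcriptomes differed broadly. A model was called when limma's adjusted p was under 0.05 in a fit to log2(RPKM + 0.5). Of 12484 models tested, 7832 (62.7%) were called, of which 3890 (31.2%) were higher and 3942 (31.6%) lower in the knockout. At least 2-fold differences were called for 3182 models (25.5%), 1585 higher (12.7%) and 1597 lower (12.8%). The counts fell to 516 higher and 492 lower at 4-fold, to 90 and 93 at 16-fold, and to 22 and 23 at 64-fold. The median log2 difference over all tested models was -0.01, and the middle 50% lay between -0.55 and 0.53. The values of the knockout and E6 did not overlap in 84.5% of tested models and in all 7832 called, so a lack of overlap is common in this comparison. With the GAAGA listing as a term 4771 models were called, 2429 higher and 2342 lower, and 2917 by at least 2-fold, of which 2492 were among the 3182. The 12-43 replicates, which sit on either side of that listing, differed by at least 50% of the knockout difference and in its direction for 156 of the 3182 models (4.90%) and for 754 of all 7832 called (9.63%).

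**Figure D1:**
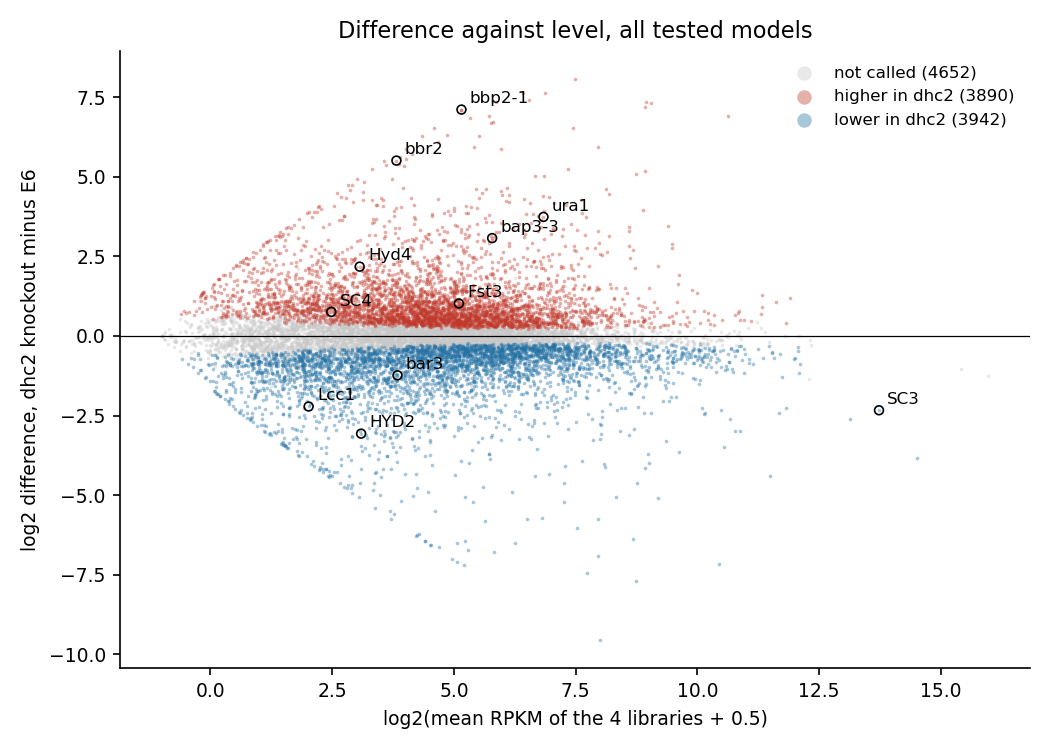
Log2 difference between the dhc2 knockout and E6 (vertical axis, log2(RPKM + 0.5) scale) against the level, log2 of the mean RPKM of the 4 libraries plus 0.5 (horizontal axis), with 1 point per tested model. The 3890 models called higher and 3942 called lower lie on both sides of 0 at all levels, and some genes with a symbol are circled.

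Hydrophobin genes differed in both directions. SC3, the hydrophobin of aerial hyphae, was the most abundant of them and was lower in the knockout, at 4842 and 4704 RPKM against 21811 and 23009 in E6. The groups did not overlap, and both 12-43 libraries, at 10907 and 13868 RPKM, lay between them. The level in E6 was 4.70 times that in the knockout (log2 difference -2.33, SE 0.19, limma adjusted p = 6.22e-05, n = 2 per group), and the difference was -1.90 with the GAAGA listing as a term. Of 9 hydrophobin genes tested, 2 were higher, 3 were lower and 4 were not called. That is 55.6% called, near the 62.7% of all models, and the median log2 difference of -0.16 was near 0.

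HYD2, another hydrophobin gene, was lower in the knockout by a larger factor. Its RPKM was 0.754 and 2.35 in the knockout, 16.8 and 12.3 in E6, and 66.9 and 47.9 in 12-43. Both knockout libraries lay below all others, and the log2 difference from E6 was -3.07 (SE 0.36, limma adjusted p = 0.000343). Hyd4 went the other way, with 14.97 and 11.6 RPKM in the knockout against 1.65 and 3.26 in E6, while 12-43 at 14.0 and 14.9 was close to the knockout. Its log2 difference was 2.18 (SE 0.27, limma adjusted p = 0.000428).

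Hyd5 was lower in the knockout, at 6.88 and 4.76 RPKM against 13.5 and 10.7 (log2 difference -1.11, SE 0.24, limma adjusted p = 0.00527). That call was lost with the GAAGA listing as a term (adjusted p = 0.209) and without E6 replicate 1 (0.0633). Hyd9 was called higher, at 2.68 and 2.08 RPKM against 0.696 and 0.493, but on 21 reads against 4 (limma adjusted p = 0.0106). The Hyd9 call was lost without dhc2 replicate 1 (0.0630), E6 replicate 1 (0.0581) or E6 replicate 2 (0.0924), and with voom or a pseudocount of 2 (0.0923 and 0.0610). Hyd1 and SC6 were not called. Hyd3, Hyd7 and Hyd8 had too few reads to test, with 10, 3 and 12 reads over both knockout libraries and 9, 13 and 18 over both of E6.

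SC1, SC4 and SC6 are hydrophobin genes known for their expression in the dikaryon, and SC4 protein lines the air channels of fruiting bodies. None of these 3 was called. SC4 was at 8.08 and 5.37 RPKM in the knockout and 3.23 and 3.66 in E6, so the groups did not overlap, and it was at 251 and 509 in 12-43. Its log2 difference was 0.76 (SE 0.35, limma adjusted p = 0.0937), and it was called when only the knockout and E6 entered the fit (adjusted p = 0.0194), when either 12-43 library was left out, without scaling, with the coding-length trend removed, and with the GAAGA listing as a term. SC1 was at 12.7 and 12.2 RPKM in the knockout and 7.57 and 10.01 in E6 (log2 difference 0.39, limma adjusted p = 0.301), and was called only with the GAAGA listing as a term (1.42, adjusted p = 0.00672). The summed level of the 3 markers was 22.7 to 24.2 RPKM in the knockout, 15.1 to 18.2 in E6 and 284 to 571 in 12-43, and none was at 0 in any library. The part of any dikaryotic mycelium in these levels was not tested.

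**Figure D2:**
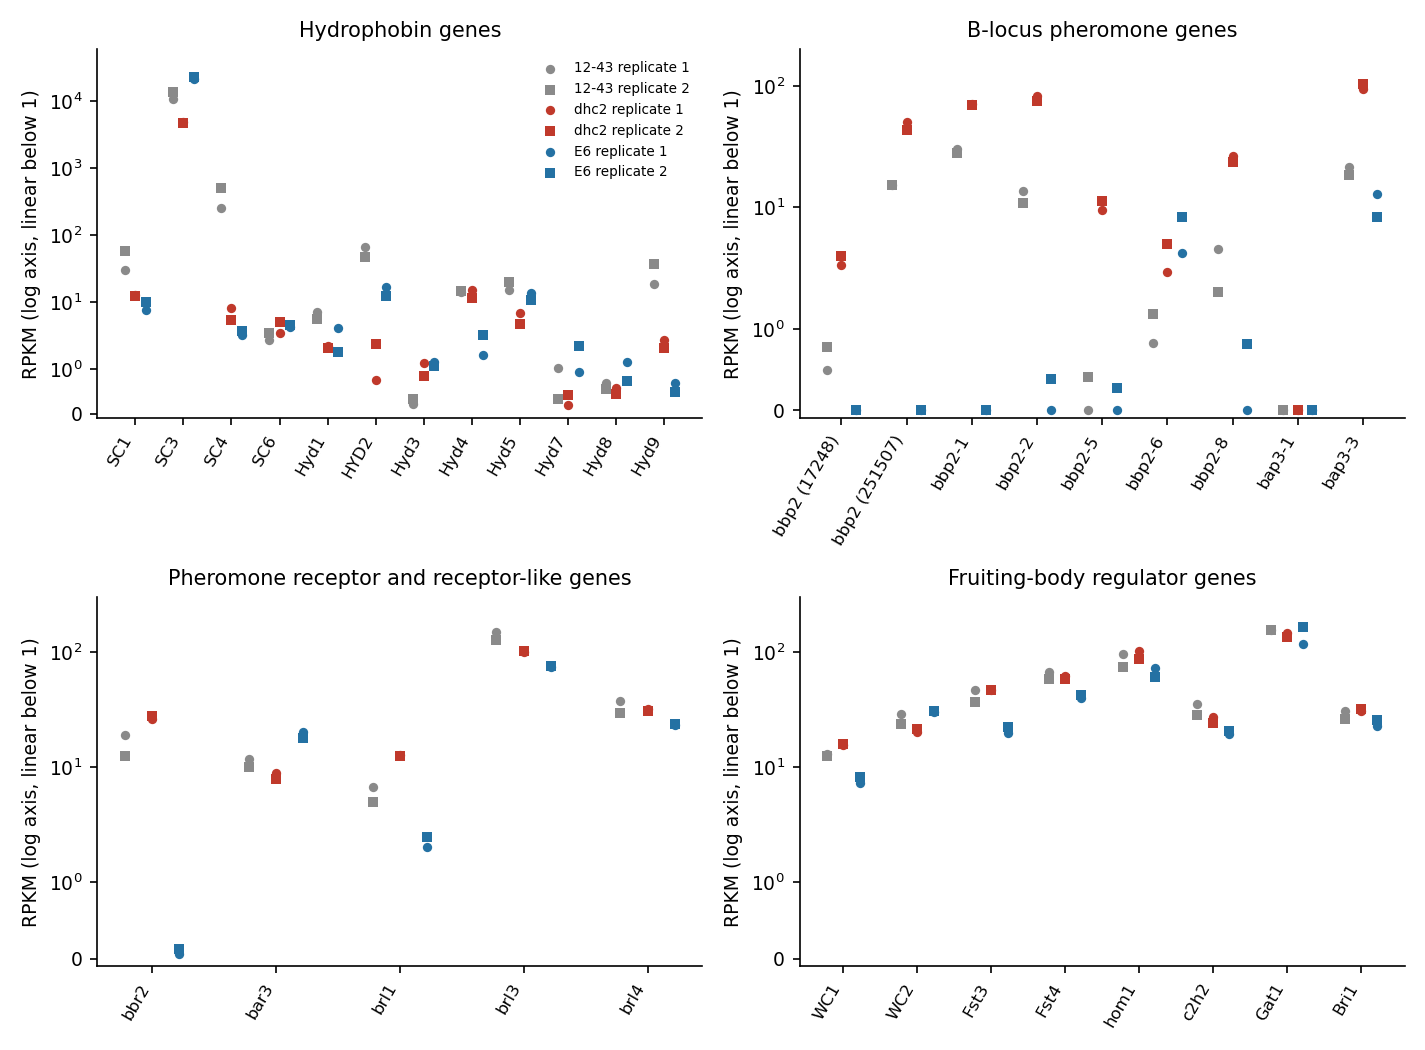
RPKM (vertical axes, logarithmic above 1 and linear below) of genes with a symbol in each of the 6 libraries, as 1 point per library, in 4 panels for hydrophobins, B-locus pheromone genes, receptor genes and fruiting-body regulators. SC3 is lowest in the knockout at 4842 and 4704 RPKM, and the pheromone genes other than bbp2-6 and bap3-1 stand higher in the knockout than in E6.

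The models of B-locus pheromone genes were higher in the knockout almost throughout. The symbols bbp2 and bbr2 carry the number 2, which the labels give at the second place of the B mating type of the knockout and of 12-43, and E6 has 1 there. Of 8 pheromone genes tested, 7 were higher in the knockout, 1 was not called and none was lower, against 31.2% higher over all models. Their summed level was 340 and 336 RPKM in the knockout, 17.2 and 18.2 in E6, and 86.3 and 77.1 in 12-43. The median log2 difference of the list was 4.504, or 4.25 with the genes at 0 in E6 placed at their lower bound. The sequences of the E6 alleles were not analysed here. Reads of the bbp2 models and of bbr2 may therefore not give the level of E6's own pheromone and receptor genes.

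The pheromone gene bbp2-1 was at 70.9 and 69.6 RPKM in the knockout, from 263 and 249 reads, and had 0 reads in both E6 libraries, so that it was at least 65.2-fold higher against a floor of 3 reads per E6 library (limma adjusted p = 2.15e-07). In 12-43 it was at 30.1 and 27.8 RPKM. All 4 libraries with the knockout's B mating type therefore held reads of bbp2-1 and both E6 libraries held none.

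A further pair of models, both with the symbol bbp2, also had reads in the knockout and none in E6. Model 251507 had 92 and 76 knockout reads against 0 and 0, at least 21.4-fold higher, and model 17248 had 14 and 16 against 0 and 0, at least 3.83-fold higher. In 12-43 model 251507 had 27 and 17 reads, and model 17248 had 2 and 2, within what a value of 0 allows. Short pheromone models of high similarity can share reads, and the counting rule is not given in the sources used here, so their separate levels are uncertain.

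The pheromone genes bbp2-2, bbp2-5 and bbp2-8 had 1 to 3 reads in E6. For bbp2-2 the counts were 235 and 207 against 0 and 1, a depth-adjusted ratio of 348 (exact 95% counting interval 62.1 to 13774). For bbp2-8 they were 107 and 93 against 0 and 3, a ratio of 52.5 (17.7 to 257), and for bbp2-5 they were 38 and 44 against 0 and 1, a ratio of 64.5 (11.3 to 2580). In 12-43, bbp2-5 was at 0 and 0.409 RPKM against 9.48 and 11.4 in the knockout, and the knockout stood above both wild types for bbp2-2, bbp2-8, bbp2-1 and the bbp2 models as well.

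The Bα pheromone gene bap3-3 was higher in the knockout as well, at 93.9 and 103 RPKM against 13.0 and 8.41 in E6 and 21.5 and 18.4 in 12-43 (log2 difference 3.07, SE 0.19, limma adjusted p = 1.70e-05). Here both wild types were read and the knockout lay above each of them. The number in the symbol bap3 is not the one that the labels give at the first place of the B mating type in any of these strains. The sequences of the strains' own Bα genes were not analysed here, so these reads may not give the level of those genes. The exception among the pheromone genes was bbp2-6, at 2.97 and 5.03 RPKM in the knockout and 4.21 and 8.34 in E6, where the groups overlapped (log2 difference -0.65, SE 0.36, limma adjusted p = 0.151). The bap3-1 model was at 0 in all 6 libraries.

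Among the receptors, bbr2, the pheromone receptor of the Bβ2 specificity, had 719 and 729 reads in the knockout and 1 and 3 in E6 (log2 difference 5.51, SE 0.19, limma adjusted p = 1.70e-06). Its levels were 26.5 and 27.8 RPKM in the knockout, 0.0574 and 0.122 in E6, and 18.9 and 12.5 in 12-43. The E6 allele was not analysed, so these reads may not give the level of E6's own receptor gene. The Bα receptor gene bar3 went the other way, at 8.99 and 7.94 RPKM against 20.3 and 18.1 (log2 difference -1.24, SE 0.14, limma adjusted p = 0.000233). As for bap3-3, the number in its symbol differs from the labels of all these strains, and their own Bα alleles were not analysed.

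The receptor-like genes encode proteins related to pheromone receptors. The gene brl1 was at 12.8 and 12.4 RPKM in the knockout against 2.02 and 2.45 in E6 (log2 difference 2.18, SE 0.17, limma adjusted p = 4.84e-05), with 12-43 between them at 6.75 and 4.95. The log2 difference of brl3 was 0.33 (limma adjusted p = 0.0124), but brl3 was not called with the GAAGA listing as a term (0.289) and without dhc2 replicate 1 (0.0718) or 2 (0.0857). The gene brl4, at 31.9 and 31.1 RPKM against 23.5 and 23.7, was not called (limma adjusted p = 0.0508), although its groups did not overlap.

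In the order of the RefSeq table, brl1 and brl3 bound a stretch of 35 genes, of which 23 had a matched model and 19 were tested. Of these 19, 15 were higher in the knockout, 13 of them by at least 2-fold, 3 were lower and 1 was not called, against 31.2% higher, 12.7% higher by at least 2-fold and 31.6% lower over all models. The call of model 112482, counted among the 15, was lost in 7 of 19 other settings. Among these was the fit with the GAAGA listing as a term, where its log2 difference was 0.091 (limma adjusted p = 0.774). The stretch holds the genes of the lists above, so these counts are not independent of theirs. A row of 6 models from neighbouring table genes were each higher by at least 2-fold: bbp2-2, 1238579, bbr2, bbp2-1, the bbp2 model 251507 and 60526.

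The models without a symbol in that run were also read in the knockout and nearly unread in E6. Model 1238579 had 394 and 310 reads in the knockout and 0 in both E6 libraries, at least 89.5-fold higher. Model 60526, of 171 nt coding length, had 260 and 245 reads against 0 and 2, a ratio of 199 (exact 95% counting interval 54.7 to 1646). The files and the table give neither a name.

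Lower in the knockout within the stretch were bar3 and the models 1160054 and 1238661. Model 1160054 had 2 and 2 reads in the knockout against 43 and 87 in E6 (log2 difference -4.77, SE 0.24, limma adjusted p = 7.03e-06). Model 1238661 was at 3.81 and 2.99 RPKM against 19.1 and 24.8 (log2 difference -2.62, SE 0.17, limma adjusted p = 2.19e-05). Differences of both signs therefore occurred within the same stretch.

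**Figure D3:**
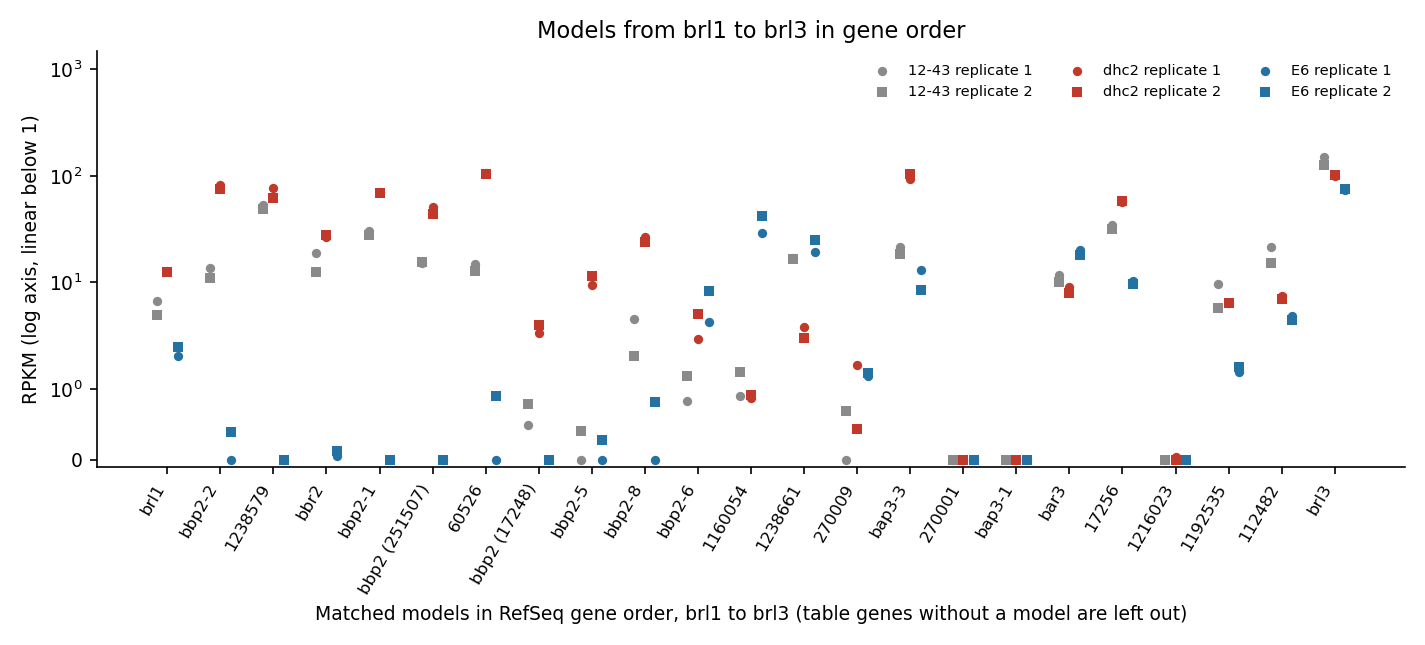
RPKM (vertical axis, logarithmic above 1 and linear below) of the 23 matched models from brl1 to brl3, in the order of the RefSeq gene table (horizontal axis, not to scale), with 1 point per library of 12-43, the dhc2 knockout and E6. The 6 neighbouring models from bbp2-2 to 60526 are at or near 0 in E6 and read in the other 4 libraries.

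Regulators of fruiting-body formation differed by small factors. Of 8 tested, 4 were higher in the knockout, 1 was lower and 3 were not called, which is 62.5% called against 62.7% of all models, with a median log2 difference of 0.33 (0.11 with the GAAGA listing as a term). At 2-fold, 1 of the 8 was called, against 25.5% of all models. That gene was Fst3, a transcription factor gene whose deletion gives more and smaller fruiting bodies, at 46.6 and 46.5 RPKM in the knockout against 19.95 and 22.3 in E6 (log2 difference 1.02, SE 0.12, limma adjusted p = 0.000335). In 12-43 it was at 47.3 and 36.9 RPKM, which spans the knockout values.

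The blue-light receptor complex is formed by the products of WC1, the photoreceptor, and WC2, its transcription factor partner, and their genes differed in opposite directions. WC1 was at 15.7 and 15.8 RPKM in the knockout against 7.29 and 8.16 in E6 (log2 difference 0.89, SE 0.12, limma adjusted p = 0.000673). WC2 was at 20.4 and 21.5 RPKM against 30.5 and 30.7 (log2 difference -0.64, SE 0.11, limma adjusted p = 0.00198). Both calls were made under all settings run.

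Fst4, a transcription factor needed for fruiting, was at 62.3 and 59.0 RPKM against 40.4 and 42.7 (log2 difference 0.44, SE 0.09, limma adjusted p = 0.0050). Its call was lost with the GAAGA listing as a term (0.126), with the coding-length trend removed (0.0618) and without dhc2 replicate 1 (0.0537). The homeodomain gene hom1 was called at a log2 difference of 0.40 (limma adjusted p = 0.0442). Its call was lost in 8 of 19 other settings, among them the fits without each of the 4 libraries in turn. It was also lost with the GAAGA listing as a term, where the difference was 0.10 (adjusted p = 0.731). The genes c2h2, Bri1 and Gat1 were not called, at log2 differences of 0.27, 0.27 and -0.10.

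Other genes with a symbol held some of the clearest differences. The gene ura1, which encodes an enzyme of pyrimidine synthesis and has served as a selection marker in transformation of S. commune, was at 213 and 214 RPKM in the knockout, 14.7 and 14.2 in E6, and 7.74 and 10.8 in 12-43. Both wild types lay far below both knockout libraries, and the level was 14.8 times that of E6 (log2 difference 3.74, SE 0.17, limma adjusted p = 4.39e-06). The laccase gene Lcc1, whose product oxidises phenols, was lower in the knockout, at 0.902 and 1.11 RPKM against 5.76 and 6.40 in E6 (log2 difference -2.22, SE 0.17, limma adjusted p = 4.47e-05). In 12-43, Lcc1 was at 0.439 and 0.422 RPKM, so E6 stood above the other 4 libraries.

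The other laccase gene with a symbol, Lcc2, was not called (log2 difference -0.18). EGC1 was at 83.5 and 80.3 RPKM in the knockout against 46.2 and 47.3 in E6 (log2 difference 0.70, SE 0.10, limma adjusted p = 0.000873). CFS2 was lower, at 1.33 and 1.37 RPKM against 2.31 and 3.10 (log2 difference -0.86, SE 0.18, limma adjusted p = 0.00515), and with the GAAGA listing as a term the difference was -0.77 and not called (0.108). In all, 25 of the 35 tested models with a symbol were called, against 62.7% of all models.

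The largest differences lay in models without a symbol, with the exception of bbp2-1. All libraries were counted on the same gene models, and the strains' own sequences were not analysed. A value near 0 may therefore not give the level of a strain's own gene. The 10 largest on the higher side, among called models whose groups did not overlap and that averaged at least 10 RPKM in the higher group, had fitted log2 differences from 7.11 for bbp2-1 to 8.08 for model 1163885, which for genes at or near 0 in one group depend on the pseudocount and are no bounds. Model 1163885 was at 357 and 362 RPKM in the knockout against 0.587 and 0.969 in E6, and at 189 and 233 in 12-43. Model 1314520 was at 1020 and 1075 RPKM against 7.04 and 4.51, and at 2126 and 2693 in 12-43. For 9 of these 10 models 12-43 stood well above E6, and the exception was model 1205547, at 873 and 1063 RPKM in the knockout, 4.13 and 7.77 in E6 and 2.99 and 25.4 in 12-43.

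On the lower side the fitted log2 differences of the 10 largest ran from -6.72 for model 1060048 to -9.54 for model 1190086. Model 1190086 was at 0.322 and 0.125 RPKM in the knockout, 456 and 561 in E6, and 0.123 and 0.461 in 12-43. Both E6 libraries stood far above all 4 others. Model 1213381 was at 19.2 and 20.8 RPKM against 2828 and 2681 in E6, with 12-43 between them at 273 and 362. Model 1356507 was at 3.67 and 4.03 RPKM in the knockout, 449 and 534 in E6, and 56.9 and 416 in 12-43, whose replicates disagreed. No call among these 20 models was lost in any setting that tested them.

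**Figure D4:**
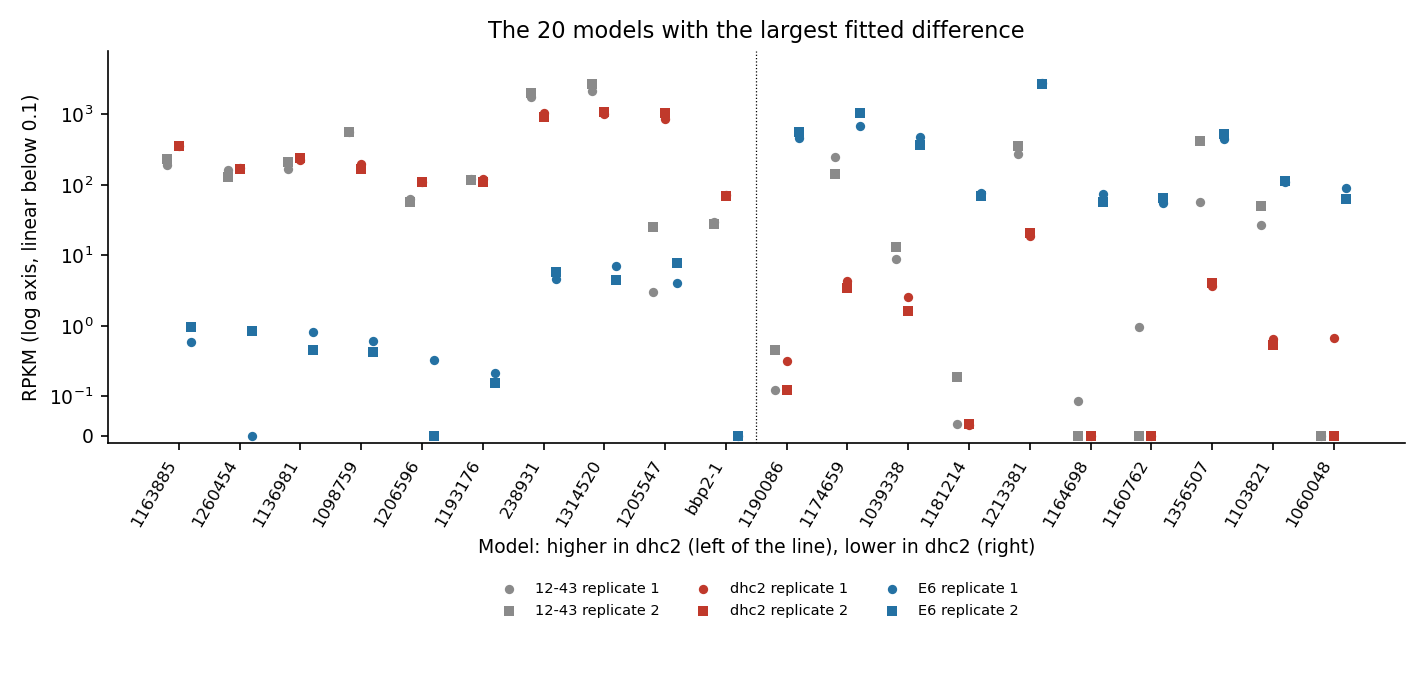
RPKM (vertical axis, logarithmic above 0.1 and linear below) in each of the 6 libraries for the 10 models with the largest fitted difference on the higher side (left of the dotted line) and the 10 on the lower side (right), with 1 point per library. The knockout and E6 points are far apart throughout, as for model 1163885 at 357 and 362 RPKM against 0.587 and 0.969, while 12-43 lies near one of them or between them for most models and above both for models 1098759, 238931 and 1314520.

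The abundant transcripts of E6 included several that were much lower in the knockout. Model 82353, of 288 nt coding length, was the most abundant model of E6 among those called with at least a 2-fold difference, at 44855 and 41844 RPKM, against 3332 and 3210 in the knockout (log2 difference -3.83, SE 0.21, limma adjusted p = 8.98e-06). It took 1.31% and 1.22% of the E6 reads and 0.0962% and 0.0927% of the knockout reads. Model 1265485 was at 16474 and 14353 RPKM in E6 against 2796 and 2615 (log2 difference -2.61, SE 0.20), and model 257434 was at 6173 and 5571 against 1342 and 1279 (log2 difference -2.27, SE 0.14). Model 1308100 was lower by a smaller factor, at 6264 and 5446 RPKM in E6 against 2846 and 2807 in the knockout (log2 difference -1.15, SE 0.15). For each of these models 12-43 lay between the groups.

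In the knockout, the most abundant models called at 2-fold were model 85500, at 5290 and 5549 RPKM against 2189 and 2203 in E6 (log2 difference 1.20, SE 0.12), and SC3. Models 1100005 and 1147135 followed, with mean levels of 4350 and 3741 RPKM against 1962 and 1435. The most abundant model of all, 1193825, which was singled out after its values were seen, was not called: it was at 37556 and 38637 RPKM in the knockout and 122243 and 59718 in E6, where the replicates were far apart (log2 difference -1.27, limma adjusted p = 0.101). It was called in 4 of 19 other settings (adjusted p down to 0.0276), and with the GAAGA listing as a term its difference turned to 0.47. It also differed between the 12-43 replicates, at 32685 and 102666 RPKM.

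Some models were read in 1 of the groups only. Whether a model without reads was not expressed, or was missing or different in sequence in that strain, was not tested. With at least 10 reads in each library of one group and 0 in both of the other, 42 models were read in the knockout alone and 48 in E6 alone (27 and 36 at 20 reads). Of the 42, 33 had at least 10 reads in each 12-43 library and 1 had none in either. Of the 48, 1 had at least 10 reads in each 12-43 library and 30 had none in either. Absence in 12-43 was thus frequent among the E6 models and rare among those of the knockout, as counts, with no test of the difference.

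The E6 models without a knockout read included 1164698, with 542 and 595 reads, at least 246-fold lower in the knockout, and 1172102, with 755 and 927 reads, at least 360-fold lower. The single model of the 48 with at least 10 reads in each 12-43 library was 1100973, with 202 and 219 reads in E6, 229 and 383 in 12-43 and 0 in the knockout, at least 91.2-fold lower. There were 66 models with at least 50 reads in both E6 libraries and no more than 5 in either knockout library, of 246 to 7245 nt coding length, and 2 of them also had at least 50 reads in each 12-43 library, of 432 and 483 nt. Which model, if any, is dhc2 was not determined from these values.

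Neighbouring models with a 2-fold difference in one direction were looked for among the 2989 tested models matched to the table, which gave 688 adjacent pairs. The order is that of the RefSeq table, and the order in these strains was not examined. Over all tested models 12.7% were called higher and 12.8% lower by at least 2-fold. How many runs such shares would give was not tested. There were 3 runs of at least 3, of which the pheromone run above was 1. Another held models 269864, 104345 and 269862, which had 0 to 7 reads in the knockout libraries. In E6 they had 141 and 239 reads, 203 and 250, and 255 and 389. The 12-43 libraries had 0 to 3 reads in each of them, so this run was read almost only in E6. The remaining run held 5 models, 80957, 104316, 64880, 13705 and 84256, lower in the knockout by log2 differences from -1.28 to -2.31, of which the call of 104316 was lost without either E6 library (limma adjusted p up to 0.0781).

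The direction of the differences moved with coding length. Among the shortest of 4 near-equal groups of tested models (126 to 696 nt) 661 were called higher and 1420 lower, with a median log2 difference of -0.33. In the longest of these groups (1701 to 15480 nt) 1335 were higher and 549 lower, with a median of 0.24. The replicates of 12-43 differed along the same axis, by medians of -0.10 in the shortest and 0.08 in the longest group for replicate 1 minus 2, those of E6 by 0.07 and -0.06, and those of the knockout by 0.01 and -0.01. With each library's trend with coding length removed, a choice made after seeing it, 7515 models were called, 3808 higher and 3707 lower, and 6693 of these were among the 7832. All 3182 models called at 2-fold kept their sign, and 2750 of them were still called at 2-fold. SC3, at 564 nt, then differed by -2.08, and the part of library preparation in the trend was not tested.

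**Figure D5:**
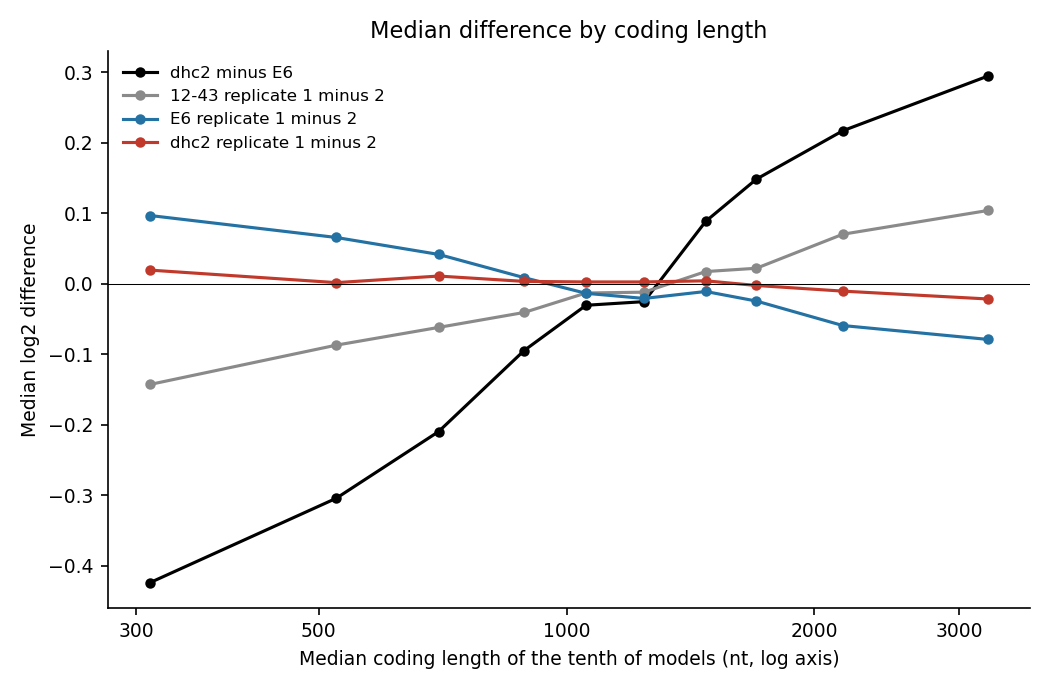
Median log2 difference (vertical axis) of the models in 10 near-equal groups by coding length (horizontal axis, nt, logarithmic) for the dhc2 knockout minus E6 and for replicate 1 minus 2 of each group. The knockout curve climbs from -0.42 in the shortest group to 0.29 in the longest, the 12-43 replicates from -0.14 to 0.10, and the knockout replicates stay between 0.02 and -0.02.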

How the data were processed

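The authors deposited RPKM per gene model for 6 libraries, per the file headers, each followed by a FastQC 0.9.2 report. Total RNA was extracted with a kit for plants and sequenced, from mRNA, in single 50-base reads, per the labels' protocols. TopHat, DESeq and edgeR appear in the submitters' processing notes without role or version. For settings, strand use, genome build and annotation the entry is the same: not given in the sources used here.

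RPKM are not counts. All 13715 models with a value came out as whole reads to within 0.005 reads, and 937 were at 0 throughout. Recovered reads summed to 98.5% to 99.8% of the mapped reads. Only lengths in multiples of 3 were tried, and the mapped reads of each library rest on the same step. The lengths are called coding lengths here on that assumption, which the recovery could not test. Of 3375 matched models with a length, 3344 (99.1%) had a length no greater than that of their gene. The remaining steps used limma 3.58.1 (R 4.3.3) on log2(RPKM + 0.5) after trimmed-mean scaling (factors 0.950 to 1.06), with trended variance. A single model held all 6 libraries (3 residual degrees of freedom), and p-values were adjusted by Benjamini-Hochberg over every tested model. Tested models had a level equal to 10 reads at the median depth in at least 2 libraries and 15 reads in all. A fold change on this scale understates the change of low genes. The method was checked on simulated data. The simulated libraries shared the same spread and had no trend with coding length and no GAAGA difference. They also held differences in far fewer models than were called in the data. The check does not cover the data in these respects.

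Genes were matched to RefSeq (Schco3) by locus tag, 2018 by the current and 1616 by an older tag. Named were the 10 largest differences in each direction, all tested genes with a symbol, and the 5 most abundant models in each group called at 2-fold. Lists planned by product name could not be drawn, because the table gives symbols for 42 genes and no products. No sequence was printed. The members and lists were chosen with earlier results of these data known.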

Additional observations from a re-analysis of the deposited data

How the results depend on the processing

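Models called numbered 5890 to 8219 when a library was left out in turn, and 2978 to 3330 at 2-fold. With the GAAGA listing as a term 4771 were called, a fit with 1 more term for 6 libraries, and the cause of the drop was not tested. Without scaling 4333 were called higher and 3424 lower. Voom on the recovered reads called 8067. The direction of all 3182 models called at 2-fold was kept in each setting except the GAAGA term, where 3167 of them kept it, and the filter of 50 reads, which tested 2444 of them.

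Same-numbered replicates shared little deviation across models. The correlation was -0.00124 between the knockout and E6, 0.00287 between the knockout and 12-43 and 0.0254 between E6 and 12-43. The labels do not say whether same-numbered libraries shared a culture or day, and these values cannot decide it. With the replicate number as a block 7649 models were called and 3189 at 2-fold, and bbp2-6 was called lower (-0.65, limma adjusted p = 0.0204), which gave 8 pheromone calls.

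Hydrophobin calls numbered 2 with the filter of 50 reads and 3 to 6 with a library left out, and pheromone calls 3 with that filter, which leaves out low genes. Regulator calls numbered 3 with the GAAGA term and 3 to 5 with a library left out, and receptor calls 3 to 5. Dikaryon marker calls numbered 1 without scaling, 1 with only the knockout and E6 in the fit, 2 with the GAAGA term, 1 with the length trend removed and 0 to 1 with a library left out. Calls among other genes with a symbol numbered 2 with the filter of 50 reads. Models read in the knockout alone numbered 27 at 20 reads.

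Among the genes and models named here, signs turned only for some that were not called. SC6 was 0.24 with the GAAGA term, 0.10 with the length trend removed and -0.38 to 0.075 with a library left out. Gat1 was 0.0052 without scaling and -0.33 to 0.14 with a library left out, Lcc2 was -0.55 to 0.19 with a library left out, and Hyd1 was 0.0082 with the length trend removed and -0.88 to 0.14 with a library left out. The cause was not tested. Depth limits statements on genes under the floor of 3 reads.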
